A study of Bubalus bubalis with 6 samples.

Results

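PRDM14, TFAP2C and MYC are transcription factor genes of the early germline and of pluripotent cells. On an array of promoters and CpG islands designed for buffalo, 28 of 177440 non-control probes carried exactly one of these 3 gene names: 7 were named PRDM14, 12 TFAP2C and 9 MYC. Within the 3 genes the name alone chose the probes, with no measured value. The genes themselves were chosen with earlier results of these data known. The gene names stand in the scanner tables of 3 of the 6 arrays. The tables of the other 3 repeat the probe position in the name field, so the names were carried over by spot, probe identifier and probe sequence, which are the same in all 6 tables.

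PRDM14 is a zinc finger protein of the PR domain family. In the mouse it is needed for primordial germ cells to form, and it holds down the enzymes that put new methyl groups on DNA. TFAP2C encodes the transcription factor AP-2 gamma, which acts beside PRDM1 and PRDM14 in the same step of mouse germ cell formation. MYC is a basic helix-loop-helix factor of cell growth and division and is one of the classic reprogramming factors. In mouse and human sperm, promoters of many developmental regulators are known to lie in unmethylated DNA.

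Sperm DNA from frozen semen of 6 water buffalo (Bubalus bubalis) bulls was measured, with 1 bull per array: subfertile bulls 1, 4 and 5 (SF1, SF4, SF5) and high-fertile bulls 2, 3 and 5 (HF2, HF3, HF5), numbered as in the labels. No treatment, breed or age is given, and the sources do not say how fertility was ranked. Sheared DNA was pulled down with an antibody against 5-methylcytosine (meDIP), labelled with Cy5 and hybridised with Cy3-labelled input DNA of the same bull. IP was always in the same dye, so any dye bias of a probe stays in its ratio, and its size was not tested. The measure throughout is log2(IP/input), centred on the median of each array, so that 0 is the typical probe of that array. It orders regions by antibody-bound DNA within an array and gives no percentage of methylation.

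Probes of 60 bases were printed for all 3 genes, and the sequences of 5 on which the results below turn are given here as the scanner tables hold them, 5′ to 3′, with each CpG dinucleotide in capitals, since sperm DNA is methylated at CpG. Probes are numbered by ascending position. For the positions, no genome build is named in the sources used here. The series text calls the array a buffalo design but names Bos taurus, cattle, as its organism, so the positions cannot be assigned to either genome here. The tables give no exon, intron, UTR or promoter class for a probe.
PRDM14 probe 3 (chr14:34079982-34080041): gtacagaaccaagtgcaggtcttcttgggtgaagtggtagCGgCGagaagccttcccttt
TFAP2C probe 6 (chr13:60160513-60160572): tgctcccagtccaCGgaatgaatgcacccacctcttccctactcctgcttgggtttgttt
TFAP2C probe 9 (chr13:60162458-60162517): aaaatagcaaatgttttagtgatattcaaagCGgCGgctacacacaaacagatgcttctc
TFAP2C probe 11 (chr13:60162763-60162822): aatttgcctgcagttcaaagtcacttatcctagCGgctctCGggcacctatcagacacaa
MYC probe 6 (chr14:12156848-12156907): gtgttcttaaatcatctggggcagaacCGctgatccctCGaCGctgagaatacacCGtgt

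The 7 PRDM14 probes spread over 15350 bp of chromosome 14, the 12 TFAP2C probes over 13008 bp of chromosome 13 and the 9 MYC probes over 6104 bp of chromosome 14. Between 0 and 6 CpGs lay in a probe, with a median of 2 for PRDM14, 1.5 for TFAP2C and 4 for MYC, and 27 of the 28 held at least 1. Some probes share sequence and are not independent measurements: PRDM14 probes 5 and 6 overlap by 25 bases, TFAP2C probes 9 and 10 by 15, and MYC probes 1 and 2 by 40. Unnamed probes lie among them, 22 with measurable input in the PRDM14 span, 75 in that of TFAP2C and 76 in that of MYC, and these are used below as neighbours of the named ones.

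Array quality parted by scan date. SF4, HF2 and HF3 were scanned in a first session, and SF1, SF5 and HF5 on later dates. The arrays of the later dates are pooled and treated as 1 session below. By slide they were mixed: SF1 shared a slide with SF4, HF2 and HF3, while SF5 and HF5 lay on another. The IP channel was well above background for 76.5 to 85.2% of probes on the arrays of the later dates, against 37.6 to 58.6% in the first session. Repeated spots of 1 sequence differed by a median of 0.13 to 0.19 on the later dates, against 0.26 to 0.38 in the first session (log2, 1093 pairs per array). Since each session holds bulls of both groups, each comparison is given with the session as well. As a check of the labelled cell, imprinted genes marked in the male germ line (RTL1, RASGRF1; 2 of 6 listed genes were measured) lay 0.06 to 0.17 above the array's median gene region in subfertile and 0.14 to 0.35 above it in high-fertile bulls. Genes marked in the oocyte (PEG10, SGCE, IGF2R; 3 of 13) lay at -0.05 to 0.23 in subfertile and -0.02 to 0.08 in high-fertile bulls. In the first session, male-marked and oocyte-marked genes read 0.17 and -0.05 in SF4, 0.35 and -0.02 in HF2, 0.17 and -0.02 in HF3. On the later dates they read 0.10 and 0.09 in SF1, 0.14 and 0.08 in HF5, 0.06 and 0.23 in SF5. The male-marked genes were thus clearly higher only in the first session. The leukocyte gene RUNX3 (1 of 5) lay at -0.31 to 0.27 in subfertile and -0.28 to 0.40 in high-fertile bulls, and the epithelial genes ESRP1 and DSP (2 of 6) at -0.13 to 0.02 in subfertile and -0.33 to -0.03 in high-fertile bulls; their part in the results was not tested.

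Tested probes were those with input well above background and no flag for uneven spots on any of the 6 arrays, and 110686 probes passed. Of the 28 named probes 15 passed: 3 for PRDM14, 8 for TFAP2C and 4 for MYC. The filter reads the input channel and the flags, not the ratio. The other 13 had measurable input on 1 to 5 arrays, and 11 of them carried a substitute signal for a spot too dim to measure on at least 1 array. For PRDM14 these were probes 1, 2, 4 and 7, measurable on 3, 3, 4 and 5 arrays, with ratios from -0.80 to 2.05. For TFAP2C they were probes 1, 2, 7 and 12, measurable on 1, 3, 4 and 5 arrays, with ratios from -1.30 to 1.97. For MYC they were probes 3, 4, 5, 7 and 9, measurable on 4, 3, 5, 3 and 2 arrays, with ratios from -1.09 to 1.86. These 13 are described only and not compared between groups. No tested probe carried a substitute or a saturated signal, and for 7 of the 15 the IP channel too was well above background on all 6 arrays. The median over all tested probes was -0.26, -0.33 and -0.26 in SF4, HF2 and HF3 of the first session. On the later dates it was -0.02, -0.10 and -0.01 in SF1, SF5 and HF5. Levels and session differences below hold this offset unless set against the tested probes. The median session difference (later minus first) over all tested probes was 0.27.

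Between subfertile and high-fertile bulls, none of the 15 tested probes differed by limma's moderated test after Benjamini-Hochberg adjustment (all adjusted p = 1.0). The same held for the whole array, where 0% of 110686 probes were called. At an unadjusted p below 0.05, 1 of the 15 stood out, TFAP2C probe 9, where 1.84% of all tested probes did. Of the 15 differences (subfertile minus high-fertile) 7 were above 0 and 8 below, from -0.71 to 1.07 with a median of -0.06, against a median of 0.09 over all tested probes. The plot of member probes shows these values bull by bull.

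**Figure D1:**
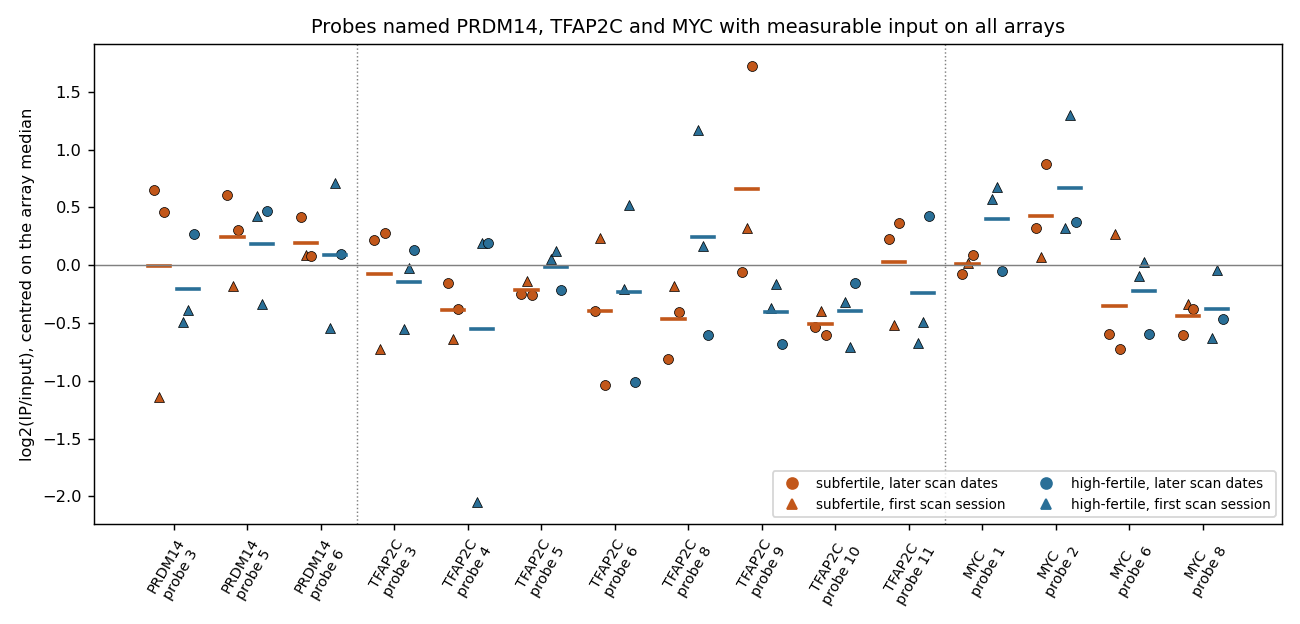
Centred log2(IP/input) of the 15 tested probes in each bull (points) with the group means (bars, n = 3 each), subfertile left of high-fertile, circles for later scan dates and triangles for the first session. Only at TFAP2C probe 9 do all 3 subfertile bulls lie beyond the 3 high-fertile ones, and at PRDM14 probe 3 the circles lie above the triangles in both groups.

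All 3 tested PRDM14 probes lay above the typical probe of their array in SF1, SF5 and HF5, scanned on the later dates. In SF4, HF2 and HF3 of the first session only 1 of the 3 did so in each bull. No difference between the groups passed the test. Probe 5, with 2 CpGs, read 0.60, -0.18 and 0.30 in SF1, SF4 and SF5, against 0.43, -0.34 and 0.47 in HF2, HF3 and HF5. Probe 6, which overlaps it and holds 4 CpGs, read 0.42, 0.09 and 0.08 in the subfertile bulls and -0.54, 0.71 and 0.09 in the high-fertile bulls. The groups overlapped at both probes, and the fitted differences were 0.05 ± 0.35 and 0.11 ± 0.37 (SE). Around these probes the array is dense: 17 overlapping probes within 118 bp gave means of 0.43, -0.15 and 0.23 in the subfertile bulls against -0.34, 0.16 and 0.27 in the high-fertile bulls. Again the groups overlapped, and the difference was 0.14 ± 0.26.

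PRDM14 probe 3 lies apart from these at a lower position, and its values followed the scan date. It read 0.65, 0.46 and 0.27 in SF1, SF5 and HF5, scanned on the later dates, against -1.14, -0.49 and -0.39 in SF4, HF2 and HF3 of the first session. All 3 bulls of the later dates lay above all 3 of the first session. In a fit that also held the fertility group, the difference (later minus first) was 1.21 ± 0.29 (SE), adjusted p = 0.0452 by limma. A second, unnamed spot of the same sequence read 0.25, 0.30 and 0.33 on the later dates and -1.63, -0.70 and -0.55 in the first session, with a difference of 1.43 and an adjusted p of 0.0329. Both spots lie on the same arrays, so they repeat the spot and not the bull. By fertility group, probe 3 read 0.65, -1.14 and 0.46 in the subfertile bulls and -0.49, -0.39 and 0.27 in the high-fertile bulls, a difference of 0.19 ± 0.48 that became -0.21 with the session as a block. The call between sessions was lost without HF5 (adjusted p = 0.2), SF1 (0.146), SF4 (0.277) or SF5 (0.145), and stood without HF2 (0.0267) or HF3 (0.0456). With the arrays centred on the tested probes the difference was 0.97 (adjusted p = 0.100), and with no filter on dim input the adjusted p was 0.0875.

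TFAP2C probe 9 is the named probe whose groups did not overlap. It read -0.06, 0.32 and 1.73 in SF1, SF4 and SF5, against -0.37, -0.16 and -0.68 in HF2, HF3 and HF5, or 0.66 ± 0.94 in subfertile and -0.40 ± 0.26 in high-fertile bulls (SD, n = 3 each). The fitted difference was 1.07 with a 95% interval of 0.06 to 2.07 and an unadjusted p of 0.0400 by limma. It did not pass adjustment over the array. Groups without overlap, in either direction, were found in 5.78% of all tested probes and in 1 of these 15. The raw signals were low: IP intensities were 439.3, 428.0 and 670.1 in the subfertile bulls and 168.5, 355.3 and 177.6 in the high-fertile bulls, over inputs of 463.4, 330.3 and 208.9 in subfertile and 213.8, 398.3 and 291.6 in high-fertile bulls. The IP was well above background in 2 subfertile bulls and in no high-fertile bull, so the high-fertile level is a bound, and against the weakest measurable signal of those arrays no fold is given. Without SF5 the difference was 0.53 (unadjusted p = 0.205), and with background correction by normexp it was 0.15. In the 4 unnamed probes that share at least 30 bases with it, the mean difference was 0.14, with -0.16, -0.90 and 0.18 in subfertile against -0.80, -0.41 and -0.11 in high-fertile bulls. Those neighbours overlapped between the groups.

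TFAP2C probe 8 had the lowest difference of the 15 tested probes. It read -0.81, -0.18 and -0.41 in the subfertile bulls and 1.17, 0.17 and -0.61 in the high-fertile bulls, a difference of -0.71 ± 0.44 (SE). Its IP, too, was well above background in 2 subfertile bulls and in no high-fertile bull, and HF5 lay among the subfertile values. Within sessions the difference was -0.85 in the first and -0.005 on the later dates. Probe 4 turned on HF2, which read -2.05 where HF3 and HF5 both read 0.19 and the subfertile bulls -0.15, -0.63 and -0.38. Leaving HF2 out moved its difference to -0.58, against 0.16 with all bulls. In the 4 unnamed probes that share at least 30 bases with probe 4, HF2 averaged 0.006 and the mean difference was -0.22.

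Probes 10 and 5 had the narrowest range over bulls of the 8 tested TFAP2C probes. Probe 10 read -0.54, -0.40 and -0.60 in the subfertile bulls and -0.32, -0.71 and -0.16 in the high-fertile bulls. A second spot of its sequence read -0.38, -0.82 and -0.67 in subfertile and -0.60, -0.63 and -0.58 in high-fertile bulls, below 0 in all 6 as well. Probe 5, with 3 CpGs, read -0.25, -0.14 and -0.26 in the subfertile bulls and 0.05, 0.12 and -0.22 in the high-fertile bulls, a difference of -0.20 ± 0.29.

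At 5 of the 8 TFAP2C probes (3, 5, 6, 8 and 11) the bulls of the 2 sessions did not overlap, where 39.6% of all tested probes showed the same, and none of the 8 was called. Probe 6 read -0.40, -1.03 and -1.01 in SF1, SF5 and HF5 against 0.24, -0.21 and 0.52 in SF4, HF2 and HF3, a fitted difference of -1.06 ± 0.31 (adjusted p = 0.0676 by limma). Probe 11 ran the other way, with 0.23, 0.36 and 0.43 on the later dates and -0.52, -0.67 and -0.49 in the first session, a difference of 0.91 ± 0.24 (adjusted p = 0.0521). Probe 3 read 0.22, 0.28 and 0.13 on the later dates and -0.72, -0.55 and -0.02 in the first session (difference 0.69, adjusted p = 0.133). Within TFAP2C, then, some probes lay higher and others lower on the later dates. Between the fertility groups these 3 probes differed by 0.07 (probe 3), -0.16 (probe 6) and 0.27 (probe 11), and adding the session as a block gave -0.16, 0.19 and -0.03.

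MYC values varied along the gene. At the low end of the positions, probe 1 (3 CpGs) read -0.07, 0.02 and 0.09 in the subfertile bulls and 0.57, 0.68 and -0.05 in the high-fertile bulls. Probe 2, which shares 40 bases with it and holds 5 CpGs, read 0.32, 0.07 and 0.88 in subfertile and 0.33, 1.30 and 0.37 in high-fertile bulls, at or above 0 in all 6. Probe 8 (2 CpGs) has the highest position of the tested MYC probes, near the middle of the span, since probe 9 was not tested. It was below 0 in all 6, with -0.61, -0.34 and -0.38 in subfertile and -0.63, -0.04 and -0.47 in high-fertile bulls. A second spot of its sequence read -0.67, 0.01 and -0.47 in subfertile against -0.95, 0.03 and -0.42 in high-fertile bulls.

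All 4 tested MYC probes had a lower mean in the subfertile bulls, by 0.06 to 0.39, and none passed. They are not 4 separate readings, as probes 1 and 2 share 40 bases. The second spot of probe 8's sequence differed by 0.07, where probe 8 itself differed by -0.06. The difference at probe 1 was -0.39 ± 0.31 (SE), with HF5 among the subfertile values, and within sessions it was -0.61 in the first and 0.06 on the later dates. The 2 unnamed probes that share at least 30 bases with probes 1 and 2 went the other way, with a mean difference of 0.70 that rests on HF2 at -1.81 where the other 5 bulls lay between 0.19 and 0.52. At probe 6 the later dates were low, with -0.59, -0.72 and -0.60 in SF1, SF5 and HF5 against 0.27, -0.10 and 0.03 in SF4, HF2 and HF3, a difference of -0.75 ± 0.24 (adjusted p = 0.0849 by limma).

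Of the 15 named probes, 1 was higher on the later dates after adjustment (PRDM14 probe 3), where 6.5% of all tested probes were, and 8.08% were called in either direction. Bulls of the 2 sessions did not overlap at 7 of the 15, 3 of them higher and 4 lower on the later dates, where 39.6% of all tested probes did not overlap. Both shares are near those of the whole array.

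A gene region is the mean over the tested probes of 1 name, and 737 genes with at least 3 such probes had one. PRDM14 gave 0.56, -0.41 and 0.28 in SF1, SF4 and SF5 and -0.20, -0.01 and 0.28 in HF2, HF3 and HF5. TFAP2C gave -0.22, -0.25 and -0.04 in the subfertile bulls and -0.37, -0.05 and -0.24 in the high-fertile bulls. MYC gave -0.24, 0.01 and -0.04 in the subfertile bulls and 0.04, 0.49 and -0.19 in the high-fertile bulls. In each gene the groups overlapped, and none of the 3 regions passed limma's test, adjusted or at an unadjusted p below 0.05. The difference was 0.12 for PRDM14 (95% interval -0.53 to 0.77), 0.05 for TFAP2C (-0.42 to 0.51) and -0.21 for MYC (-0.75 to 0.34), against a median of 0.08 over all regions. An exact permutation test of the 3 against 3 bulls gave p = 0.700, 0.700 and 0.400, and it cannot go below 0.10. Over the array, 0% of gene regions were called between groups, with 6 at an unadjusted p below 0.05. In 2.99% of gene regions the groups stood fully apart, and none of the 3 was among them.

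**Figure D2:**
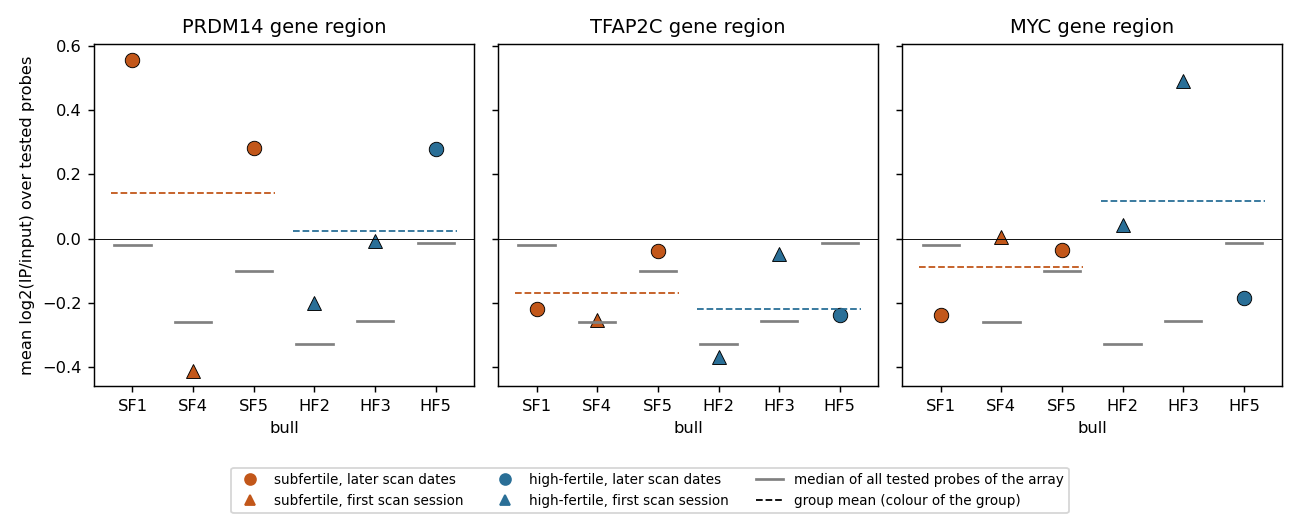
Mean log2(IP/input) over the tested probes of PRDM14 (3 probes), TFAP2C (8) and MYC (4) in each bull, subfertile left of high-fertile, with group means (dashed) and the median of all tested probes of each array (grey). PRDM14 lies at or above 0.28 in the 3 bulls of the later dates (circles) and below 0 in those of the first session (triangles). Relative to the grey median it lies at 0.58, 0.38 and 0.29 in SF1, SF5 and HF5. In SF4, HF2 and HF3 it lies at -0.15, 0.13 and 0.25 relative to that median. MYC is highest in HF3 at 0.49.

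The groups' differences did not settle within sessions either. For PRDM14 the difference was -0.31 in the first session and 0.14 on the later dates, for TFAP2C -0.05 and 0.11, and for MYC -0.26 and 0.05, with a single bull in 1 group each time. As a block, the session gave -0.08, 0.03 and -0.11. A test of the group difference between sessions called none of the 3 and 0% of all gene regions (25 of 737 at an unadjusted p below 0.05). Between sessions themselves, the PRDM14 region averaged 0.37 ± 0.16 on the later dates and -0.21 ± 0.20 in the first session (SD, n = 3 each), a fitted difference of 0.61 with adjusted p = 0.0546, while 20.8% of all gene regions were called. That region was called without HF2 (adjusted p = 0.0416) or HF3 (0.0142). For TFAP2C and MYC the session differences were 0.05 and -0.30 (adjusted p = 0.871 and 0.315).

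Against the array's own median tested probe, the PRDM14 region lay 0.25 ± 0.25 higher (SD, n = 6 bulls), above it in 5 of 6 bulls, and MYC 0.18 ± 0.36 higher, above it in 4. TFAP2C lay at -0.03 ± 0.16. Exact sign-flip permutation tests over the 6 bulls gave p = 0.0938, 0.312 and 0.750 in that order (adjusted over the 3 genes 0.281, 0.469 and 0.750), where the smallest possible p is 0.0312. Set against tested probes of the same CpG number, the values were 0.24, 0.21 and -0.06 for PRDM14, MYC and TFAP2C. Neither comparison passed the test for any of the 3 genes. With no filter on dim input, PRDM14 lay 0.32 above and TFAP2C 0.24 below probes of the same CpG number in all 6 bulls (adjusted p = 0.0469 each, exact sign-flip test), but that set includes spots whose input was not above background.

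All tested probes between the outermost named ones, named or not, were then read together. Over 25 probes at PRDM14 the mean difference was 0.11 ± 0.24 (SE), over 83 at TFAP2C -0.06 ± 0.20 and over 80 at MYC -0.06 ± 0.26. Probe by probe, the difference was above 0 at 18 of the 25, 43 of the 83 and 30 of the 80. The maps of the 3 loci show these means against distance.

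**Figure D3:**
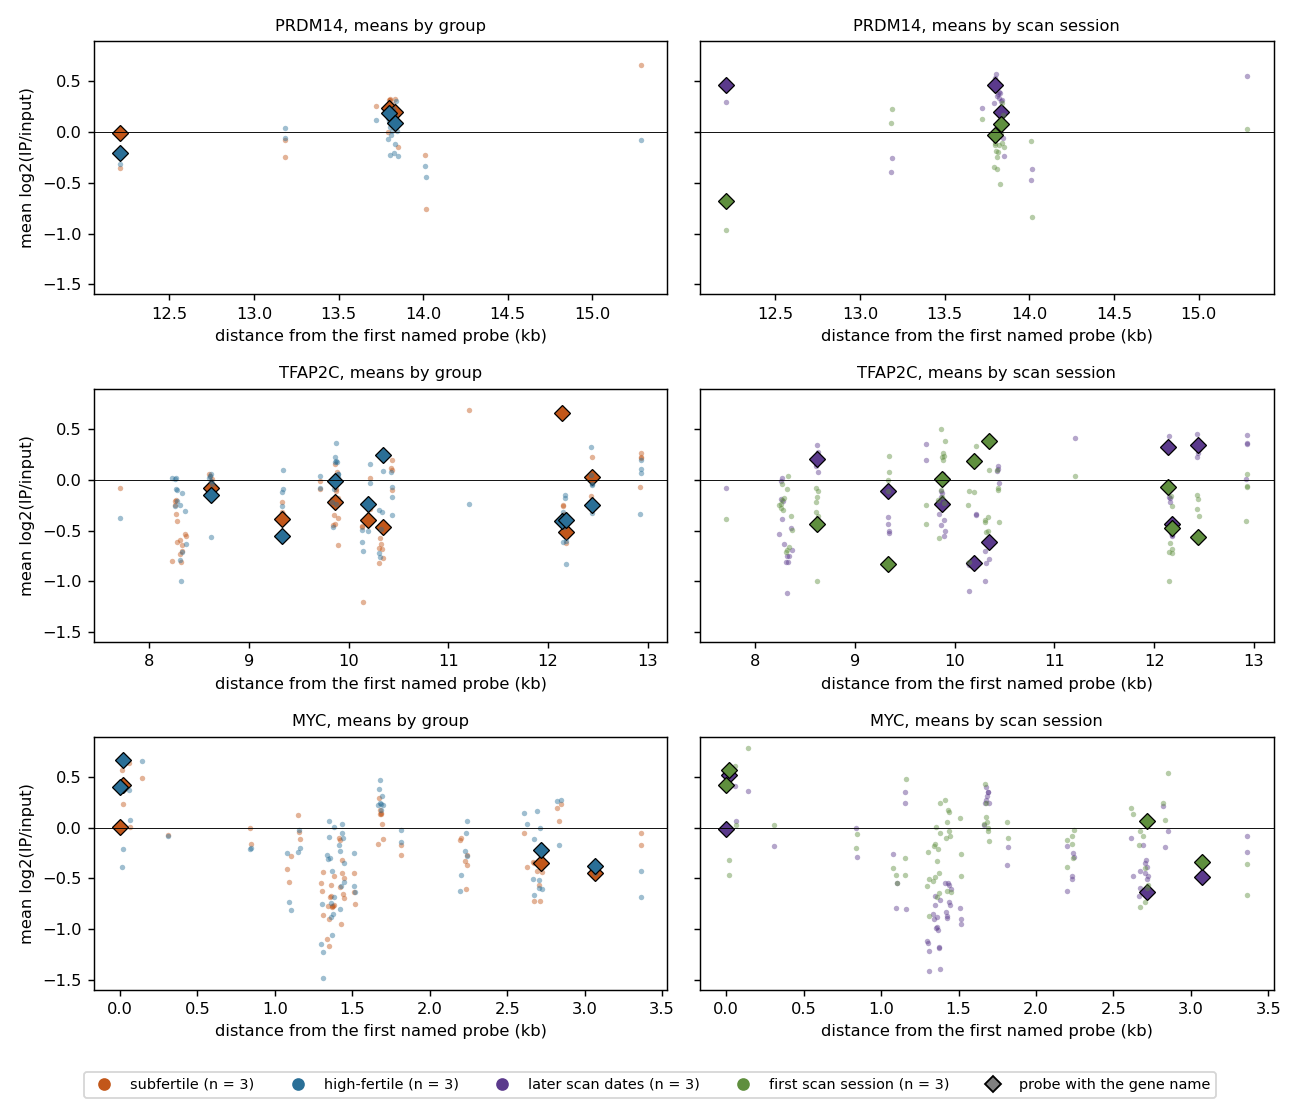
Mean log2(IP/input) of all tested probes in the PRDM14, TFAP2C and MYC spans against distance from the first named probe in kb, by group (left; subfertile and high-fertile) and by scan session (right; later dates and first session), with named probes as diamonds. Differences between group means run from -1.07 to 1.07 over these probes. Among other places, the sessions part at PRDM14 probe 3 and around TFAP2C probes 3, 6 and 11. They also part at a MYC stretch that starts 1299 bp from the first named probe.

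Where probes overlap densely, runs of at least 3 tested probes, each starting fewer than 60 bases after the one before, were averaged to tiles. There were 20 such tiles at these loci, of 68 to 209 bp and 3 to 25 probes, and 10 held a named probe. Subfertile bulls were higher in 9 and lower in 11, with differences from -0.34 to 0.46. None was called by limma between groups (smallest unadjusted p = 0.161), as over the array, where 0% of 12860 tiles were called and 67 had an unadjusted p below 0.05. The highest was PRDM14 tile 2, where 3 unnamed probes read 0.32, 0.42 and 0.63 in the subfertile bulls and 0.01, -0.59 and 0.58 in the high-fertile bulls. HF5 lay among the subfertile values there. The lowest was TFAP2C tile 6, around probe 8, with -0.70, -0.56 and -0.71 in subfertile and -0.09, -0.07 and -0.79 in high-fertile bulls, where HF5 was the lowest of all.

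Between sessions 5 of the 20 tiles were called, 25% of them, where 34.7% of all tiles were. The called ones were TFAP2C tiles 2, 5 and 9, which hold probes 3, 6 and 11, and MYC tiles 3 and 4, which hold no named probe. These MYC tiles adjoin, with tile 3 ending at chr14:12155636 and tile 4 starting at chr14:12155638, so they are not independent readings. MYC tile 3 is a run of 25 probes over 209 bp that read -0.76, -0.83 and -1.14 in SF1, SF5 and HF5 against -0.37, -0.68 and 0.27 in SF4, HF2 and HF3. Its fitted difference was -0.68 ± 0.24 (adjusted p = 0.0374 by limma). TFAP2C tile 9 went up, with 0.22, 0.32 and 0.43 on the later dates and -0.48, -0.54 and -0.13 in the first session (0.75 ± 0.19, adjusted p = 0.00726). These calls numbered 0 without HF5, 3 without SF1 and 1 without SF4, and 4 or 5 without another bull. Scan date and the bulls of a session cannot be told apart.

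**Figure D4:**
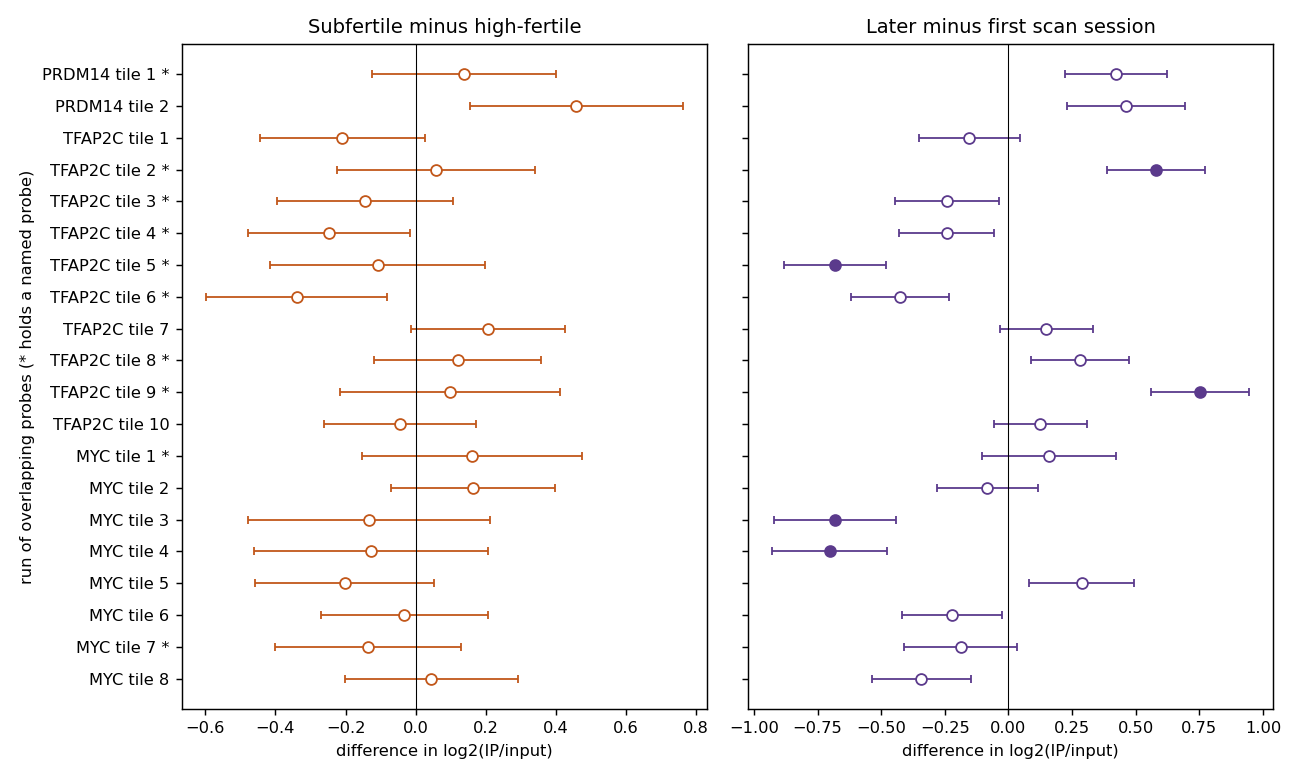
Difference in log2(IP/input) with its standard error for the 20 tiles at PRDM14, TFAP2C and MYC, subfertile minus high-fertile (left) and later minus first scan session (right), with filled points for an adjusted p below 0.05 and asterisks for tiles that hold a named probe. On the left all points are open, and on the right 5 are filled, 2 above and 3 below 0.

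Few other genes of the same networks had a gene region, since many were not named on the array and others had too few tested probes. Of 18 genes listed for the PRDM family 3 were named on the array and none had a gene region, and of 33 pluripotency genes 11 were named and none had one. In the AP-2 list (2 of 10 measured), TFAP2A, the paralogue of TFAP2C in neural crest and skin, differed by -0.11 and KCTD1, an inhibitor of AP-2 factors, by 0.14. For the MYC network (1 of 27) RUVBL1, an ATPase cofactor of MYC, differed by 0.04. Of the germ cell list (2 of 30) BMP4, the signal that starts primordial germ cells in the mouse, differed by -0.19 and the T-box factor EOMES by -0.27. EHMT1, a histone H3 lysine methyltransferase among partners of PRDM14 and DNA methylation enzymes (1 of 24), differed by 0.23. None of these 6 regions passed the test in either direction between groups or between sessions.

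By likeness over the 6 arrays, measured as the root mean square difference of values relative to each array's median region, PRDM14 was nearest to TMC4 (0.13), ONECUT1 (0.13) and CRYZL1 (0.16). TFAP2C lay nearest to ERCC8 (0.08), DYNLRB1 (0.09) and ADRA1D (0.10), and MYC to IMMT (0.12), PRKG1 (0.13) and CDH13 (0.15). Over all gene regions the median distance was 0.50 from PRDM14, 0.37 from TFAP2C and 0.50 from MYC.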

How the data were processed

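The authors deposited linear spot intensities from the scanner. Per the file headers, these come from Agilent Feature Extraction 10.7.3.1, with detrending and a linear dye normalization, and the header of SF1 names the CGH protocol where the others name the ChIP protocol. Their deposited log10 ratio puts IP over input, and the authors' series table gives the same ratio as log2 (177439 probes matched). From the processed intensities, log2(IP/input) was computed and centred on each array's median over non-control probes, with neither loess nor quantile normalization. Each spot stayed its own probe. Both contrasts, group and session, used limma 3.58.1 (R 4.3.3, eBayes moderation after lmFit, 2-sided, Benjamini-Hochberg over all features, threshold 0.05), read with the R package data.table (version 1.17.8). The fit was checked on simulated data, where recovery of planted changes was required only at a smaller spread than that of these arrays. The median within-group SD of the tested probes was 0.43, so the check does not show what difference these arrays could reveal. Plots were drawn with matplotlib 3.10.9. The number of bulls, 3 per group, limits the precision. Named were all member probes, up to 4 regions per list by unadjusted p, and the 3 nearest regions per gene. Members and lists were chosen with earlier results of these data known; tiles and spans were added after the data were seen. Some probe sequences are not reported here.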

Additional observations from a re-analysis of the deposited data

How the results depend on the processing

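No comparison of subfertile with high-fertile bulls called a probe, region or tile of PRDM14, TFAP2C or MYC under any alternative that was run. Of 428 values recomputed under alternatives, 344 kept their direction and their side of the threshold and 62, none of them called, turned round. The cause was not tested. The values printed below for each setting are mainly those that turned round or changed call. With no filter on dim input, the TFAP2C region's difference was -0.077, no named probe was called between sessions (0), the session differences of the PRDM14 and TFAP2C regions were -0.16 and -0.058, and the levels against probes of the same CpG number passed for PRDM14 (0.32) and TFAP2C (-0.24). With the IP also above background on all arrays, the TFAP2C region's difference was -0.028, and PRDM14 and MYC had too few probes left for a region. With normexp background correction, the differences were -0.17, 0.032 and 0.13 at TFAP2C probes 4, 5 and 10 and 0.048 and 0.025 at MYC probes 2 and 8. With arrays centred on the tested probes, they were -0.019 at PRDM14 probe 5, -0.0034 at TFAP2C probe 3 and -0.026 for the TFAP2C region, the session difference of the TFAP2C region was -0.19, and no named probe was called between sessions (0). With the session as a block, they were -0.21 and -0.12 at PRDM14 probes 3 and 5, -0.16, -0.084, 0.19 and -0.035 at TFAP2C probes 3, 4, 6 and 11, 0.12 at MYC probe 6 and -0.084 for the PRDM14 region. In the first session alone, they were -0.70 and -0.23 at PRDM14 probes 3 and 5, -0.44, 0.083 and 0.11 at TFAP2C probes 3, 6 and 10, 0.30 at MYC probe 6, and -0.31 and -0.046 for the PRDM14 and TFAP2C regions. On the later dates alone, they were -0.017 at PRDM14 probe 5, -0.46, 0.30 and -0.13 at TFAP2C probes 4, 6 and 11, 0.057 and 0.23 at MYC probes 1 and 2, and 0.050 for the MYC region. Over all tested probes of the span, the TFAP2C region's difference was -0.061.

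Leaving out each bull in turn, the differences between groups ran from -0.14 to 0.76, -0.21 to 0.27 and -0.21 to 0.42 at PRDM14 probes 3, 5 and 6. They ran from -0.13 to 0.39, -0.58 to 0.54, -0.55 to 0.21 and -0.27 to 0.0023 at TFAP2C probes 3, 4, 6 and 10, and from -0.47 to 0.075, -0.44 to 0.060 and -0.19 to 0.11 at MYC probes 2, 6 and 8. For the regions they ran from -0.089 to 0.40 (PRDM14) and from -0.027 to 0.13 (TFAP2C). The level of TFAP2C against the array ran from -0.080 to 0.0073 and its session difference from -0.032 to 0.13. Calls between sessions numbered 0 to 3 among named probes, 0 to 1 among the gene regions and 0 to 5 among the tiles. No paired analysis was possible because the groups share only replicate number 5. Dim signal limits these values, since 13 of 28 named probes had unmeasurable input on some array, and within a session 1 group is a single bull, assumed to vary like the others.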

Other observations

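Of the 188 tested probes within the spans, 5 had an unadjusted p below 0.05 between groups by limma, TFAP2C probe 9 and 4 unnamed ones, a share near the 1.84% of all tested probes, and none passed adjustment. At TFAP2C, a probe at chr13:60161530-60161589 read 0.43, 0.68 and 0.94 in SF1, SF4 and SF5 against -0.69, 0.11 and -0.14 in HF2, HF3 and HF5, a difference of 0.92 (unadjusted p = 0.0183). It lies outside the tiles, so no overlapping run repeats it. A probe at chr13:60158554-60158613 with 6 CpGs went the other way, with -0.51, -1.11 and -0.77 in subfertile against 0.02, 0.35 and -0.32 in high-fertile bulls (difference -0.81, unadjusted p = 0.0308 by limma). At MYC, a pair of probes starting 4 bases apart in tile 3 differed between groups in the same direction, by -0.96 at chr14:12155475-12155534 (unadjusted p = 0.0280 by limma) and -1.07 at chr14:12155479-12155538 (unadjusted p = 0.0161 by limma). SF4 was lowest at both, with -1.28 and -1.74, while the tile that holds them differed between groups by -0.13 ± 0.34.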
